A study of Oryza sativa with 20 samples.

Results

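The step examined here is the passage of the rice lamina joint into stage S3, set against stage S2. Its members are the 4 lamina joint libraries titled with those stages, 2 of S3 and 2 of S2, out of 20 small RNA libraries in the study, which sampled the lamina joint and the blade at 5 stages, S1 to S5. All groups came from Oryza sativa seedlings, with no mutant, transgene or treatment named in the labels. Germinated seeds were grown in water under 16 h of light and 8 h of dark, and the lamina joint and blade of the first complete leaf were cut apart on the days numbered 4, 5, 6, 7 and 9 from germination. Days are not tied to S3 or S2 in the labels. The lamina joint S3 group and the lamina joint S2 group therefore differ, as far as the labels go, in stage alone. Pieces of tissue were frozen for RNA, and nothing in the labels says that the 2 libraries of a group came from separate sets of plants, so p-values reflect only how far these libraries differ, a spread that may be technical. In such tissue pieces, fewer cells of a type and less RNA per cell cannot be told apart. No messenger RNA was measured in these libraries, so the labelled tissue was not checked against marker genes.

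The lamina joint is the hinge between the sheath and the blade of a grass leaf. As it matures, growth and wall changes on its upper and lower faces bend the blade away from the stem, and this sets the leaf angle, a trait that bears on how densely rice can be planted. Plant microRNAs are short RNAs that load into Argonaute proteins and direct cleavage or translational repression of closely matching transcripts, many of which encode transcription factors or parts of hormone pathways. The level of a mature microRNA thus bears on which transcripts a growing tissue can keep.

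The count files list 685 numbered entries, called tags here, and do not pair them with microRNA names or sequences. Tags are therefore described by number, level and course, and no family or target is assigned to them. The S3 libraries held 417594 and 691284 counts, and the S2 libraries held 351372 and 694117 counts, within a range of 194799 to 1169330 over the 20 libraries. At S3, 361 and 375 tags had a count, against 368 and 366 at S2. Levels are given as CPM, which are counts scaled to a fixed library total, after TMM scaling, which corrects for the share of a library taken by its most abundant tags. The TMM factors were 1.20 and 1.07 at S3, against 1.65 and 1.17 at S2, so S2 replicate 1 was scaled most. Replicates ranked the tags alike, with a Spearman correlation of 0.957 at S3 and 0.958 at S2 over the tested tags. The replicates of lamina joint S1, which enter the fit and the course over stages, stood farther apart, with a correlation of 0.848.

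The set of detected tags was largely shared between S3 and S2. Of 420 tags with a count in any of the 4 libraries, 317 had a count in all 4. Only 8 tags had a count in both S3 libraries and none at S2, and the largest summed count of a tag seen at S3 alone was 7. In the other direction, 9 tags had a count in both S2 libraries and none at S3, with a largest summed count of 3 among the tags seen at S2 alone. At this depth, the contrast between S3 and S2 lay in the levels of shared tags and not in the appearance of abundant tags at either stage.

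More of the calls at S3 were rises than falls, by a margin that moved with the scaling. Of 299 tags with enough counts to be tested, 25 were higher at S3 than at S2 and 3 were lower, at an adjusted p under 0.05 in edgeR's quasi-likelihood test. These 28 tags were 9.36% of those tested, 8.36% higher and 1% lower; 65 tags (21.7%) had an unadjusted p under 0.05, 50 higher and 15 lower, and with total counts as the scaling this split was 34 higher and 31 lower. The median fitted log2 change was 2.00 over the 25 that rose, with a range of 0.88 to 3.77, and -1.66 over the 3 that fell, against 0.17 over all tested tags. Among the 25, 23 rose by at least 1 on the log2 scale, 13 by at least 2 and 6 by at least 3. The 2 stages did not overlap in any of the 28 tags, while 52.8% of all tested tags had groups that did not overlap, 31.4% with S3 above S2 and 21.4% with S3 below S2. The calls lay close to the threshold: the smallest adjusted p was 0.0127, 22 of the 28 had an adjusted p of 0.03 or more, and the smallest among tags not called was 0.0529. With other scalings of the same counts, 6 to 10 tags passed in place of 28, 66.7% to 77.8% of them higher at S3. A fit to the 10 lamina joint libraries alone called none at an adjusted p under 0.05 but 51 at an unadjusted p under 0.05. The count went up to 35 in a fit without both lamina joint S1 libraries, which was chosen after seeing the data. Leaving out 1 library gave 0 calls without either S3 library or without S2 replicate 2, and 2 without S2 replicate 1. Leaving out 1 library of another group gave 7 calls without lamina joint S4 replicate 2, 15 without lamina joint S5 replicate 1, 6 without either blade S1 library, 10 without either blade S2 library, 18 without either blade S4 library or blade S5 replicate 1, and 7 without blade S5 replicate 2.

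**Figure D1:**
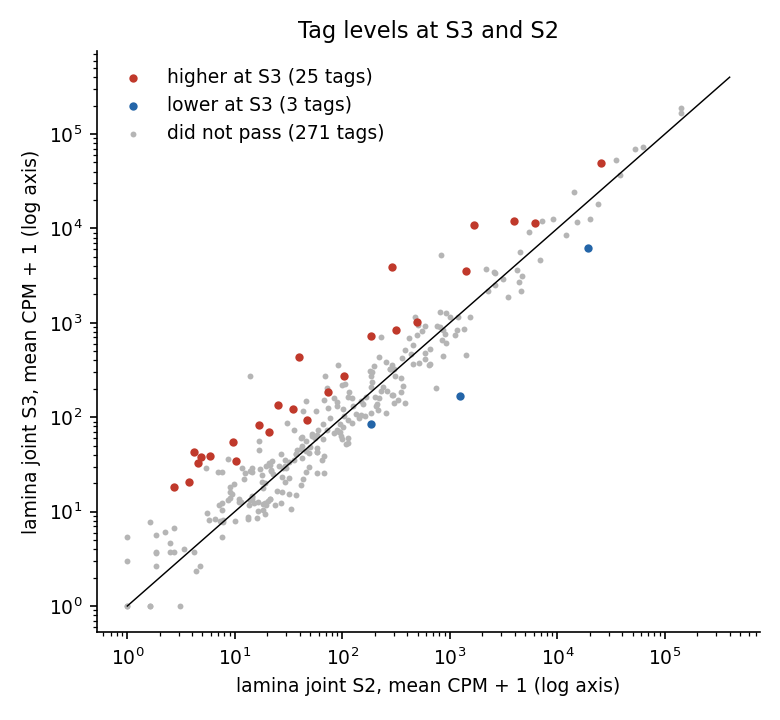
Mean CPM plus 1 of each of the 299 tested tags at lamina joint S3 (vertical, log axis) against lamina joint S2 (horizontal, log axis), each the mean of 2 libraries, with the line of equality. The 25 tags that passed as higher at S3 lie above the line, at S3 means between 17.2 and 49519 CPM, and the 3 that passed as lower lie below it.

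A total of 34 refits were made, 20 of them leaving out 1 library and 14 changing a setting. None of the 28 tags changed sign in any refit that tested it, as groups that do not overlap leave little room for a change of sign. In every refit without 1 library, at least 25 of the 28 kept an unadjusted p under 0.05. A set of 6 tags, 4 that rose and 2 that fell, passed under each of the 4 other scalings, while 18 passed under none of those 4. The 6 tags passed in 13 of the 14 settings, the exception being the fit to the 10 lamina joint libraries alone. These 6 include tag_225, tag_189 and tag_050, described next.

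**Figure D2:**
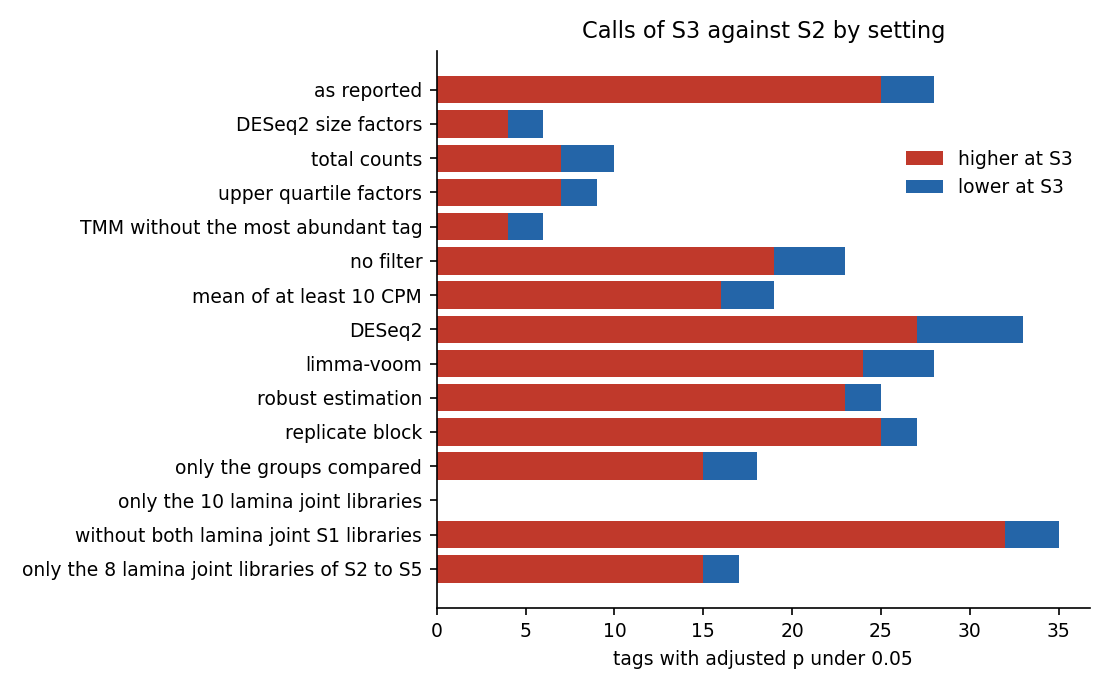
Number of tags with an adjusted p under 0.05 for lamina joint S3 against S2 (horizontal axis) under the reported fit and 14 other settings (vertical axis), stacked as higher and lower at S3. The total runs between 0 and 35, the 4 other scalings give 6 to 10, and no bar holds more falls than rises.

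Among the called tags, tag_110 had the largest rise. A tag that was not called had a larger fitted change, 4.41 ± 1.34 (SE, edgeR adjusted p 0.0529), at 289 and 255 CPM at S3 against 15.5 and 9.85 CPM at S2. Tag_110 stood at 4134 and 3700 CPM in the S3 libraries, against 218 and 355 CPM in the S2 libraries. Both S3 libraries were thus about an order of magnitude above both S2 libraries, with 4807 counts at S3 and 414 at S2. The fitted log2 change was 3.77 ± 0.94 (SE), with an edgeR adjusted p of 0.0334. The ratio of summed counts, scaled by library size times TMM factor, was 13.0. Its 95% interval of 11.8 to 14.4 covers counting error only. The adjusted p was 0.0542 with DESeq2 size factors and 0.0527 with TMM computed without the most abundant tag, so the call was lost there. Over the 20 refits that left out 1 library, the log2 change ran between 3.53 and 4.17 and the edgeR adjusted p between 1.18e-05 and 0.212. It was 0.212 without S2 replicate 1, 0.111 without S2 replicate 2, 0.0738 without S3 replicate 1 and 0.102 without S3 replicate 2. It was 0.0658 without lamina joint S4 replicate 2, 0.0630 without blade S5 replicate 2, and 0.0518 or 0.0519 without any 1 of the blade S1 and blade S2 libraries. At the other stages tag_110 was at 67.9 and 2134 CPM in the S1 lamina joint libraries, far apart from each other, at 12658 and 19825 CPM at S4, and at 11023 and 12456 CPM at S5. The S2 libraries were thus below 1 of the 2 S1 libraries and above the other, and the S4 and S5 libraries were all above the S3 libraries.

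The second largest rise among the called tags was that of tag_225, a tag with few counts. It had 33.8 and 50.1 CPM at S3, against 5.18 and 1.23 CPM at S2. This rested on 17 and 37 counts at S3 and on 3 and 1 counts at S2, so its fold is known only loosely: the ratio of summed counts was 15.1, with a 95% counting interval of 5.58 to 57.6. The fitted log2 change was 3.73 ± 0.66 (SE), with an edgeR adjusted p of 0.0127, the smallest of the step. Without 1 library, the adjusted p was 0.109 without S2 replicate 2, 0.0586 without S3 replicate 1 and 0.0579 without S3 replicate 2. Later lamina joint libraries had 28.0 and 37.7 CPM at S4 and 52.9 and 100 CPM at S5. One S4 library was thus below both S3 libraries, and both S5 libraries were above them.

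Among the tags that fell, tag_189 fell most. It had 135 and 202 CPM at S3, against 765 and 1743 CPM at S2. The S2 libraries differed from each other by more than the S3 libraries did, yet the lower of them was well above both S3 libraries. The fitted log2 change was -2.89 ± 0.66 (SE), with an edgeR adjusted p of 0.0292, and the ratio of summed counts was 0.131 with a counting interval of 0.113 to 0.151. The adjusted p was 0.111 without S2 replicate 2, 0.0861 without S3 replicate 1 and 0.102 without S3 replicate 2. The fall did not stop at S3, since tag_189 was at 13.1 and 2.69 CPM at S4 and at 7.55 and 3.58 CPM at S5, the S4 and S5 levels resting on 7 counts or fewer per library.

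An abundant tag, tag_050, also fell, with replicates that lay close together after TMM scaling. It had 6332 and 6003 CPM at S3, against 19887 and 19038 CPM at S2, so on this scale the drop was many times the gap between replicates at either stage. The closeness at S2 depended on the scaling. Replicate 1 of S2 had 11519 of 351372 counts and replicate 2 had 15458 of 694117. By share of the library the S2 replicates thus lay farther apart, though both stayed above the S3 libraries. The fitted log2 change was -1.66 ± 0.35 (SE), with an edgeR adjusted p of 0.0183, and the ratio of summed counts was 0.316 with a counting interval of 0.308 to 0.325. The adjusted p was 0.0913 without S2 replicate 1, 0.109 without S2 replicate 2, 0.0643 without S3 replicate 1 and 0.102 without S3 replicate 2. It was at 15454 and 10432 CPM at S1, at 1807 and 1700 CPM at S4, and at 861 and 605 CPM at S5, so its highest lamina joint level was at S2. The third tag that fell was a smaller one, at 75.7 and 90.8 CPM at S3 against 186 and 177 CPM at S2, with a fitted log2 change of -1.12 ± 0.33 (SE) and an edgeR adjusted p of 0.0460.

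**Figure D3:**
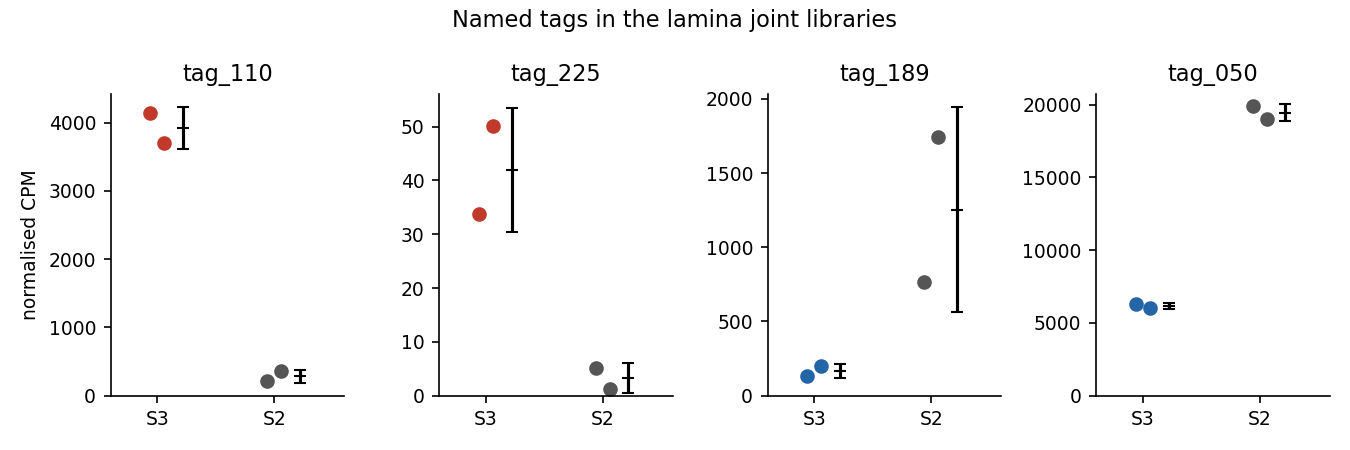
Normalised CPM (vertical axes, each from 0) of tag_110, tag_225, tag_189 and tag_050 in the 2 lamina joint S3 and the 2 lamina joint S2 libraries, with points for libraries and bars for the mean ± SD. In each panel the S3 points and the S2 points do not overlap, and the widest gap between replicates is that of tag_189 at S2.

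The other tags that rose spanned low and high levels. Their mean level at S3 lay between 17.2 and 49519 CPM, with a median of 133 CPM over the 25, against a median of 38.7 CPM at S2. Over all tested tags the medians were 72.1 CPM at S3 and 64.5 CPM at S2. Of the 25, 8 averaged under 10 CPM at S2, where they had 2 to 13 summed counts. Those 8 had means of 17.2 to 54.1 CPM at S3, and their fitted log2 changes of 1.82 to 3.73, median 3.04, carry the widest counting error. A further 7 averaged 15.8 to 72.0 CPM at S2 and rose to 69.6 to 438 CPM at S3. The largest change among these 7 was that of a tag at 524 and 352 CPM at S3, against 38.0 and 39.4 CPM at S2, with a log2 change of 3.49 ± 0.65 (SE) and an edgeR adjusted p of 0.0127. This tag is among the 6 that passed under all 4 other scalings.

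Another 5 tags that rose averaged 102 to 491 CPM at S2 and 272 to 3917 CPM at S3, tag_110 among them. The last 5 averaged more than 1000 CPM at S2 already. One of these had 9591 and 11929 CPM at S3, against 1305 and 2020 CPM at S2, a log2 change of 2.69 ± 0.68 (SE, edgeR adjusted p 0.0334). A further one had 12004 and 11802 CPM at S3, against 4009 and 3811 CPM at S2, a log2 change of 1.61 ± 0.40 (SE, edgeR adjusted p 0.0334). In both, the 2 libraries of each stage lay close together on the TMM scale, next to the distance between stages. The smallest change among the 25 was also in an abundant tag, at 9826 and 12766 CPM at S3 against 5934 and 6319 CPM at S2, a log2 change of 0.88 ± 0.25 (SE, edgeR adjusted p 0.0460). Together the 25 tags took 9.73% and 11.7% of all counts in the S3 libraries, against 6.42% and 4.83% in the S2 libraries. The 3 tags that fell took 0.787% and 0.672% at S3, against 3.44% and 2.45% at S2. The members of both sums were chosen for this difference, so the sums describe how much of a library the calls cover.

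The 10 tags with the largest mean share of the 4 libraries held 76.2% and 79.7% of the counts at S3, against 72.0% and 78.9% at S2. The first of them held 23.8% and 19.1% at S3, against 17.3% and 20.7% at S2, and these shares overlapped. On the TMM scale its log2 change was 0.42 ± 0.35 (SE), with an edgeR adjusted p of 0.547. The second held 18.6% ± 1.67 at S3 and 19.8% ± 2.54 at S2 (SD, n = 2 each), with a log2 change of 0.22 ± 0.21 (SE) and an edgeR adjusted p of 0.637. Of the 10, only the seventh passed the test, a share near the 9.36% over all tested tags. The seventh held 4.46% and 6.61% at S3, against 4.04% and 3.06% at S2, with a log2 change of 0.97 ± 0.28 (SE) and an edgeR adjusted p of 0.0460. The tenth had the largest fitted change downward among the 10, at 1.43% ± 0.489 at S3 and 2.71% ± 0.150 at S2 (SD, n = 2 each), with a log2 change of -0.67 ± 0.52 (SE) and an edgeR adjusted p of 0.509.

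The share of tags called was larger in classes of higher level. None of 12 tags averaging under 10 CPM over the 20 libraries passed. Of 139 tags between 10 and 100 CPM, 8 passed (5.76%), all higher at S3. Between 100 and 1000 CPM, 9 of 100 tags were higher and 2 lower (11% in all). Above 1000 CPM, 8 of 48 tags were higher and 1 lower (18.8% in all). The median standard error of the log2 change was 1.34, 0.63, 0.46 and 0.39 over these classes in rising order of level, while the median size of the change was 0.86, 0.60, 0.68 and 0.49.

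The course of the called tags was followed into lamina joint libraries that had not entered the S3 against S2 contrast itself, although they had entered its estimate of spread. Of the 25 tags that rose, 23 had a higher mean at S4 than at S1, against 49.8% of all tested tags. The median log2 difference of means, with 1 CPM added, was 2.00 over the 25 and 0 over all tested tags. At S5, 23 of the 25 were above S1, against 52.5% of all tested tags, with medians of 2.32 over the 25 and 0.20 over all. Because the S1 libraries stood apart from each other, each was also used alone. The S4 mean was above S1 replicate 1 for 24 of the 25 tags and above S1 replicate 2 for 23, against 51.2% and 54.2% of all tested tags. The S5 mean was above them for 23 and 21, against 53.2% and 54.5% of all tested tags. The 3 tags that fell were lower at S4 and at S5 than at S1, without exception, while 49.8% and 52.5% of all tested tags were higher.

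Over the 5 stages in order, the median of the 25 group means was 40.5 CPM at S1, 38.7 at S2, 133 at S3, 205 at S4 and 452 at S5. Over all tested tags it was 77.7, 64.5, 72.1, 75.4 and 69.6 CPM. The means were lowest at S2 for 15 of the 25 tags, at S1 for 9 and at S5 for 1. Of all 299 tested tags, 75 were lowest at S2, 71 at S1 and 88 at S5. The means of the 25 were highest at S5 for 11, at S4 for 7, at S3 for 6 and at S1 for 1. The shares of all tested tags highest at these stages were 28.4%, 19.4%, 12% and 24.1%. Since S2 and S3 were used to choose the tags, their places in this order are a description only. Between S4 and S5 the 25 tags had no common direction: 12 of them had a higher mean at S5 than at S4, against 46.8% of all tested tags. Single tags did differ, with log2 differences of means, S5 over S4, between -1.11 and 2.44.

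**Figure D4:**
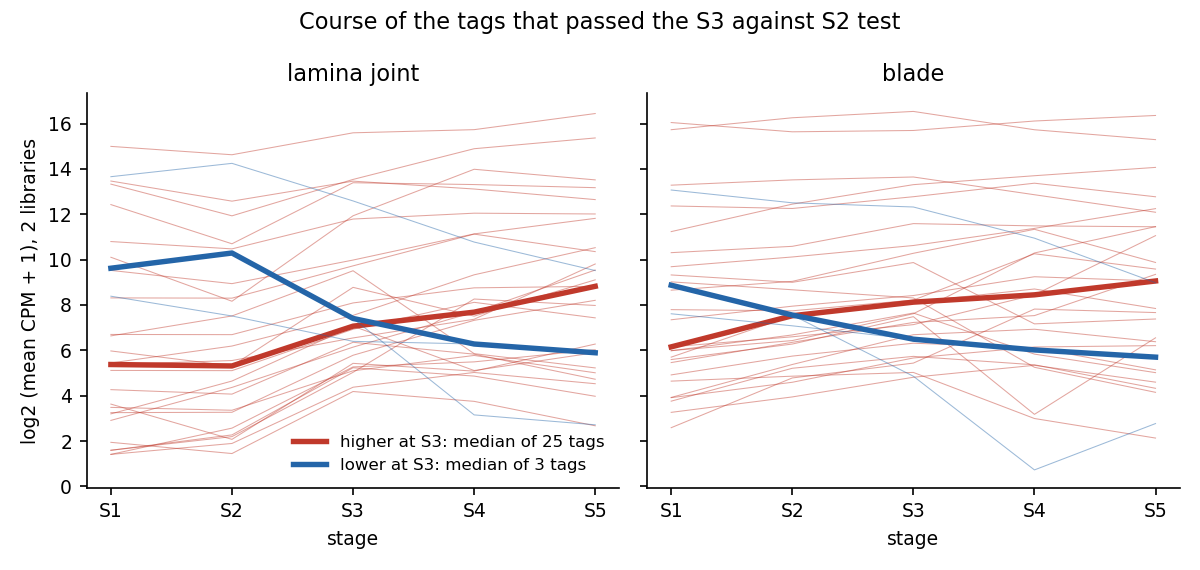
Log2 of mean CPM plus 1 (vertical axis, mean of 2 libraries) over stages S1 to S5 (horizontal axis) in the lamina joint (left) and the blade (right) for the 25 tags higher and the 3 tags lower at lamina joint S3 than at S2. Thin lines are tags and thick lines medians; the thick line of the 25 climbs after S2 in the lamina joint, and already between S1 and S2 in the blade.

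The same step in the blade gave no calls. Blade S3 against blade S2, 2 libraries each, had 0 of 299 tags (0%) at an adjusted p under 0.05 in edgeR, 28 (9.36%) at an unadjusted p under 0.05, 4 with DESeq2 and 0 with limma and voom; the smallest edgeR adjusted p was 0.0584. Without 1 library, edgeR called 3 tags without lamina joint S1 replicate 2, 1 without either lamina joint S5 library, 2 without blade S3 replicate 1 and 1 without blade S3 replicate 2. The median standard error of the log2 change was 0.55 in either tissue. The fit pools the spread of each tag over all 20 libraries, so these standard errors cannot show whether the tissues differed in spread.

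The blade values of the tags called in the lamina joint nonetheless leaned the same way. These blade libraries are separate from the 4 of the lamina joint, but both tissues were cut from the first complete leaf. Deviations of same-numbered libraries of the 2 tissues had a correlation of 0.146 at S2 and 0.248 at S3. Whether plants or handling shared at a stage entered both tissues was not tested. Of the 25 tags that rose in the lamina joint, 24 had a fitted blade change above 0, against 57.9% of all tested tags. Their median blade log2 change was 0.61, with a range of -0.36 to 1.39, against 0.13 over all tested tags. For 17 of the 25, both blade S3 libraries were above both blade S2 libraries, against 23.4% of all tested tags. All 3 tags that fell in the lamina joint had a blade change below 0, against 40.8% of all tested tags. Across the 299 tags, the lamina joint and blade changes were related with Pearson's r of 0.343 and Spearman's rho of 0.357, as a description: the points share the scaling and the fitted spread, and tags are not independent replicates.

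For tag_110 the blade means were 10146 ± 3962 CPM at S3 and 5592 ± 611 CPM at S2 (SD, n = 2 each), a log2 change of 0.86 ± 0.85 (SE). The blade S2 level of tag_110 was thus already above its lamina joint S3 level of 3917 ± 307 CPM (SD, n = 2). For tag_225 the blade means were 178 ± 27.9 CPM at S3 and 76.5 ± 33.4 CPM at S2 (SD, n = 2 each), a log2 change of 1.19 ± 0.49 (SE, edgeR adjusted p 0.464), with both S3 libraries above both S2 libraries. For tag_189 the blade means were 28.0 ± 6.63 CPM at S3 and 187 ± 115 CPM at S2 (SD, n = 2 each), a log2 change of -2.75 ± 0.69 (SE), close to that of the lamina joint. For tag_050 the blade means were 5123 ± 1955 CPM at S3 and 5821 ± 760 CPM at S2 (SD, n = 2 each), a log2 change of -0.18 ± 0.34 (SE). Its fall in the lamina joint brought it to 6167 ± 232 CPM at S3 (SD, n = 2), a level that overlaps the blade libraries of the same stage.

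The difference between the tissues in the step was tested directly, as lamina joint change minus blade change. No tag passed (0 of 299, 0%) at an adjusted p under 0.05 in edgeR, with DESeq2 or with limma and voom; 26 tags (8.7%) had an unadjusted p under 0.05 in edgeR, and the smallest adjusted p was 0.223. Without 1 library, edgeR called 3 tags without lamina joint S1 replicate 1, 4 without lamina joint S1 replicate 2 and 1 without blade S3 replicate 1. The median standard error of this difference was 0.79 on the log2 scale, larger than that of either change. For tag_110 the difference was 2.91 with a 95% interval of 0.30 to 5.52 (edgeR adjusted p 0.471). For tag_225 it was 2.54 with an interval of 0.77 to 4.31 (edgeR adjusted p 0.262). For tag_050 it was -1.47 with an interval of -2.51 to -0.43 (edgeR adjusted p 0.262). For tag_189 it was -0.14 with an interval of -2.21 to 1.92 (edgeR adjusted p 1.00), which spans changes of several fold in either direction. These per-tag intervals are not adjusted for the number of tags, and the tags were picked for a large lamina joint change, which enters the difference. The lamina joint step was thus not shown to differ from the blade step for any tag.

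**Figure D5:**
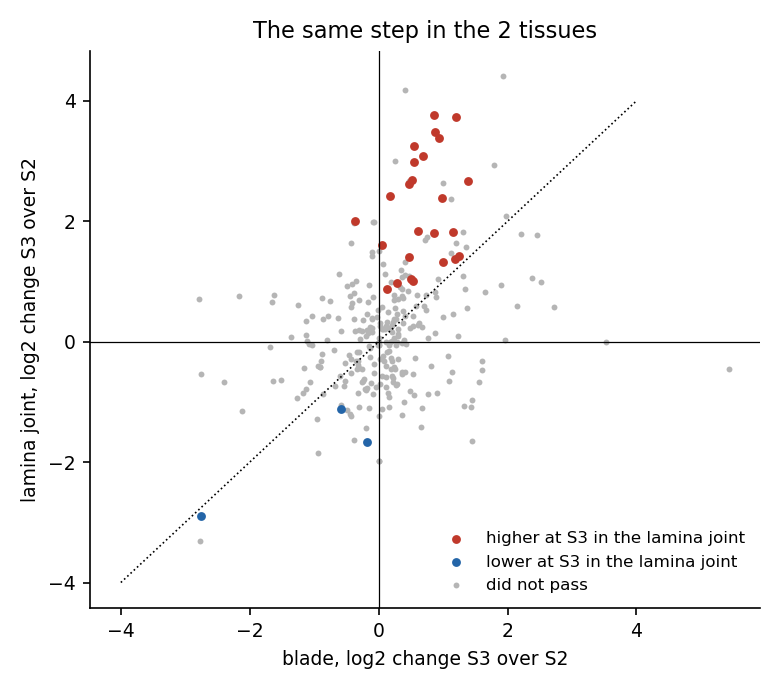
Fitted log2 change of S3 over S2 in the lamina joint (vertical axis) against the blade (horizontal axis) for 299 tested tags, with the line of equal change dotted. Of the 25 tags that passed as higher in the lamina joint 24 lie right of 0 in the blade, and the 3 that passed as lower lie left of 0.

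The step to S3 was also set against the following one, S4 minus S3, in the lamina joint. The following step had 53 calls (17.7%) in edgeR, 27 higher (9.03%) and 26 lower (8.7%) at S4, against the 28 of the step to S3, so its calls were balanced in direction. Without 1 library, the S4 against S3 count was 32 without S3 replicate 2, 31 without S4 replicate 1 and 27 without S4 replicate 2. Both steps use the S3 libraries, with opposite sign, so their values are given side by side only. The difference between the steps, tested in edgeR, passed for 11 tags (3.68%), 10 with the higher change in the step to S3 (3.34%) and 1 with the higher change in the following step (0.334%); 40 tags (13.4%) had an unadjusted p under 0.05. This count was 6 without S2 replicate 1, 2 without S3 replicate 1, 4 without S3 replicate 2, 5 without S4 replicate 1 and 6 without S4 replicate 2, all in the lamina joint.

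The 2 tags with the smallest p among the 10 were tag_204 and tag_095, both with a peak at S3 over the 3 stages. In stage order, tag_204 had 768 and 857 CPM at S2, 1242 and 1337 CPM at S3, and 48.6 and 18.9 CPM at S4. Its step to S3 did not pass, at a log2 change of 0.67 ± 0.44 (SE, edgeR adjusted p 0.408), and the following step was -5.22 ± 0.53 (SE). The difference between its steps was 5.89 ± 0.75 (SE), with an edgeR adjusted p of 0.000433, and it passed in each of the 34 refits. In the same order, tag_095 had 235 and 129 CPM at S2, 554 and 904 CPM at S3, and 59.8 and 53.9 CPM at S4. It was among the 25 that rose at S3, at a log2 change of 2.00 ± 0.53 (SE, edgeR adjusted p 0.0372), and the following step was -3.67 ± 0.58 (SE). The difference between its steps was 5.68 ± 0.86 (SE), with an edgeR adjusted p of 0.00172, and it too passed in each of the 34 refits.

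The tag with the opposite pattern was tag_126, which was lowest at S3. It had 12.1 and 18.5 CPM at S2, 9.96 and 8.13 CPM at S3, and 129 and 108 CPM at S4. Its step to S3 rested on 11 counts at S3 and 22 at S2 and did not pass, at a log2 change of -0.77 ± 0.57 (SE, edgeR adjusted p 0.472). The difference between its steps was -4.47 ± 1.01 (SE), with an edgeR adjusted p of 0.0230. That adjusted p was 0.0690 without S2 replicate 2, 0.0969 without S3 replicate 1, 0.320 without S3 replicate 2 and 0.0640 without S4 replicate 1, all in the lamina joint.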

How the data were processed

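Small RNA counts of 20 libraries were used, 2 for each of 10 groups named by the sample titles. Each library has a deposited file of raw, whole-number counts by tag. The submitters' processing notes name CASAVA and the build IRGSP-1.0. Not given in the sources used here are the aligner, the annotation, the counting tool and the handling of reads that match several tags. Near-identical tags may therefore share or divide reads.

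Tests were edgeR 4.0.16 quasi-likelihood tests in R 4.3.3, on the deposited counts, with TMM factors and a mean for each group fitted to all 20 libraries (10 residual degrees of freedom). The filter (filterByExpr, minimum count 10, minimum total 15) left 299 tags, and at least 99.9% of each library's counts fell in them. Tests were two-sided, with Benjamini-Hochberg adjustment over the 299 tags and a threshold of 0.05. The F statistic gave the standard errors. Confidence intervals of count ratios are exact 95% binomial intervals and, as PCR copies of a molecule are not independent, cover counting error alone. No replicate pair agreed within sampling noise, with a chi-square per degree of freedom of 79.5 at lamina joint S3 and 93.3 at S2.

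Alternatives used other scalings, filters, DESeq2 1.42.0, limma 3.58.1 with voom, other sets of libraries and each library left out, with the 299 tags held fixed in the last. The fits were tested on simulated counts with known changes and a common spread for all tags. Such counts are simpler than these data, so that test lends no support to the calls. Named tags were those with the largest change among calls averaging at least 10 CPM whose stages did not overlap, 2 per direction because the files pair no names, and for the difference between steps those with the smallest p. The most abundant 10 were described by rank. Other tags are given without number, chosen after their values were seen. A rule for microRNA families could not be applied without names. The tags, lists and rules were chosen with earlier results of these data known. Plots used Python 3.11.15 and matplotlib 3.10.9.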

Additional observations from a re-analysis of the deposited data

Results flagged for a closer look

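The change of the lamina joint in the step to S3 differed from its change in the following step, S4 minus S3, for 11 tags in edgeR's test of the difference itself. The difference in log2 change was 5.89 for tag_204, 5.68 for tag_095 and -4.47 for tag_126.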

How the results depend on the processing

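For S3 against S2 in the lamina joint, 28 tags passed as reported. The count was 6 with DESeq2 size factors, 10 with total counts, 9 with upper quartile factors and 6 with TMM computed without the most abundant tag, and the median log2 change of all tags was 0.05, -0.09, -0.01 and 0.09 under these scalings, against 0.17 as reported. It was 18 when only the 4 libraries compared were fitted, 0 with the 10 lamina joint libraries (51 at an unadjusted p under 0.05), and 17 with the 8 lamina joint libraries of S2 to S5, a set chosen after seeing the data. The replicate block gave 27. The numbers were not taken to pair the samples: the deviations of same-numbered libraries of lamina joint S3 and S2 had a correlation of -0.044, and 14 of 45 pairs of groups were over 0.1. Between the tissues at the same stage it was 0.552 at S1, 0.146 at S2, 0.248 at S3, 0.318 at S4 and 0.061 at S5. With the replicate block set within each stage, chosen after seeing the data, the difference between tissues still had 0 calls (28 at an unadjusted p under 0.05, smallest edgeR adjusted p 0.180). Without filter 23 passed, with a mean of at least 10 CPM 19, with DESeq2 33, with limma and voom 28, with robust estimation 25, and without both lamina joint S1 libraries, also chosen after seeing the data, 35. The difference between tissues had 1 call without filter and 3 without both lamina joint S1 libraries. Blade S3 against S2 had 10 calls without filter, 4 with DESeq2 and 1 with robust estimation. The difference between steps had 22 calls without filter, 7 with only the groups compared and 3 with the 10 lamina joint libraries. Leaving out 1 library gave 0 to 36 calls for S3 against S2, 0 to 4 for the difference between tissues, 0 to 3 for the blade, 2 to 15 for the difference between steps and 27 to 59 for S4 against S3. The share of risen tags above S1 at S4, 92% as reported, lay between 86.7% and 100% over the settings and between 87.9% and 100% without 1 library; the share of calls averaging over 100 CPM, 71.4% as reported, lay between 66.7% and 80% and between 50% and 75%. With the 10 lamina joint libraries, tag_225, tag_189 and tag_050 had an edgeR adjusted p of 0.0823 and tag_110 of 0.138, while tag_126 had 0.0511 for the difference between steps. Neither the called tags nor the named values changed sign in any refit that tested them, while the median of all tags did, as given above. The cause of the changes in count was not tested. With 2 libraries per group, leaving out 1 left a single library, assumed to vary like the other groups. None of 12 tags under 10 CPM passed.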
